A study of Mus musculus with 6 samples.

Results

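Neurotrophic factors and their receptors were measured in dorsal root ganglia (DRGs) of mice that received AAV5-*Gfp* or AAV5-*V1+V2*. The 9 genes described here were chosen by symbol, as the Trk receptors *Ntrk2* and *Ntrk3*, the receptor kinase *Ret* with its co-receptors *Gfra1*, *Gfra2*, and *Gfra3*, the p75 receptor *Ngfr*, and the ligands *Bdnf* and *Gdnf*. They are 9 of 48440 rows in the count table, and each matched 1 row. The L3/4 DRGs were taken from wild-type male mice. In 3 libraries the ganglia had been microinjected with an adeno-associated virus carrying *Gfp* (AAV5-*Gfp*), and in the other 3 with a mix of viruses carrying the transcript variants V1 and V2 of *NIS-lncRNA* (AAV5-*V1+V2*), a nerve injury-specific long noncoding RNA. Both groups therefore received virus, the controls with *Gfp* in place of the lncRNA, and the injected virus differed between the groups. The deposited text gives 5 weeks after microinjection for tissue collection and 4 weeks for the comparison. The age of the mice, the number of mice behind a library, and the promoter in the viral vectors are not given in the sources used here. P-values therefore measure the spread between these libraries, which may be partly technical. Overexpression of *NIS-lncRNA* itself was not checked here.

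Neurotrophins act through Trk receptor tyrosine kinases. BDNF binds TrkB (*Ntrk2*), and neurotrophin 3 binds TrkC (*Ntrk3*), whereas p75 (*Ngfr*) binds all neurotrophins and joins other receptors in complexes. The GDNF family binds GFR-alpha co-receptors on the cell surface (GDNF to *Gfra1*, neurturin to *Gfra2*, artemin to *Gfra3*), and these present the ligand to *Ret*, the shared signalling kinase. In adult DRGs these receptors mark sensory neuron classes: *Ntrk3* is known for proprioceptive and other large myelinated neurons, *Ntrk2* for low-threshold mechanoreceptors, *Ret* with *Gfra2* for nonpeptidergic nociceptors and some mechanoreceptors, and *Gfra3* for peptidergic nociceptors. *Ngfr* is made by neurons and also by Schwann cells, and *Ntrk2* and *Ntrk3* also give rise to receptors without a kinase domain.

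Total counts ranged from 32025612 to 34764282 per library. Values are TMM-normalized CPM (the count scaled to library size) unless stated otherwise, and fold changes are of AAV5-*V1+V2* against AAV5-*Gfp* by quasi-likelihood testing in edgeR over 18593 genes, in which a Benjamini-Hochberg adjusted p under 0.05 was a call. The list of 13 pan-neuronal markers was present in all libraries, with a summed level from 5183 to 5601 CPM with AAV5-*Gfp* and from 3177 to 4589 CPM with AAV5-*V1+V2*. AAV5-*V1+V2* replicate 1 stood apart in having the lowest level of this list and the highest level of 10 macrophage markers (1804 CPM, against 662 to 920 CPM in the other AAV5-*V1+V2* libraries and 205 to 291 CPM with AAV5-*Gfp*). Values without it are given for all of the 9 genes but *Gfra1* and *Gdnf*, which were at log2 fold changes of -0.32 and 0.16 without it. Skeletal muscle markers varied from 6.56 to 332 CPM over the libraries and were highest in AAV5-*Gfp* replicate 2.

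Of the 9 genes, 2 were lower in AAV5-*V1+V2* DRGs and 0 were higher by edgeR's test. All 9 passed the filter on low counts. *Ntrk3* and *Gfra2* were the genes that fell. The share of all genes tested that was called lower was 5.27%, and the share called higher was 10.1%. At an unadjusted p under 0.05 the number lower was 3, with *Ntrk2* added, and the number higher was 0, against 15.5% of all genes lower. The share of all genes higher at an unadjusted p under 0.05 is not given here. DESeq2 and limma-voom also called 0 of the 9 higher. The log2 fold change was below 0 for 8 of the 9, as for 50.0% of all genes tested, and the median over the 9 was -0.27 against -0.0003 over all genes. Without AAV5-*V1+V2* replicate 1 the median over the 9 was -0.16. In 5 of the 9, every AAV5-*V1+V2* library was below every AAV5-*Gfp* library, a separation seen in 22.0% of genes. *Gdnf* had the opposite separation, seen in 23.4% of genes.

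**Figure D1:**
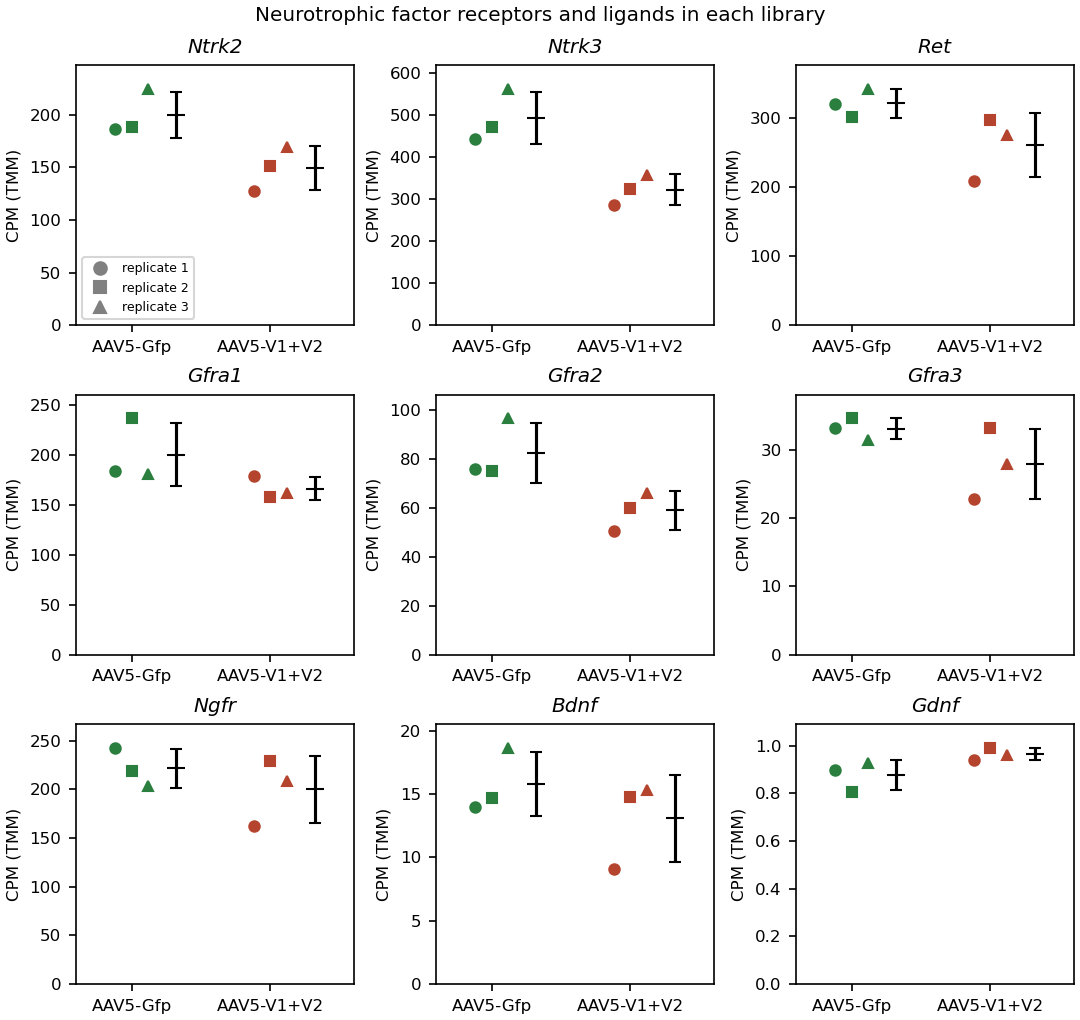
TMM-normalized CPM (vertical axes, from 0) of the 9 genes in each library, by group (horizontal axes), with a marker shape for each replicate and the mean with SD in black. The groups do not overlap for *Ntrk2*, *Ntrk3*, *Ret*, *Gfra1*, *Gfra2*, and *Gdnf*, and AAV5-*V1+V2* replicate 1 is the lowest library for all genes shown but *Gfra1* and *Gdnf*.

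*Ntrk3*, which encodes TrkC, occupies bases 78175959 to 78738012 of chromosome 7 (build GRCm38, used for all positions), minus strand. Its level was 444, 473, and 563 CPM across control replicates 1, 2, and 3, whereas AAV5-*V1+V2* replicates 1, 2, and 3 had 286, 325, and 358 CPM. Every AAV5-*V1+V2* library was below every AAV5-*Gfp* library. Mean levels were 493 ± 61.9 CPM (SD, n = 3) and 323 ± 36.3 CPM (SD, n = 3). *Ntrk3* fell by 34.5% (log2 fold change -0.61, standard error 0.12, edgeR adjusted p = 0.0244). Without AAV5-*V1+V2* replicate 1 the log2 fold change was -0.52 (adjusted p = 0.0218 by edgeR). The call was lost without AAV5-*Gfp* replicate 1 (edgeR adjusted p = 0.0545), replicate 2 (0.0881), or replicate 3 (0.0942), and without AAV5-*V1+V2* replicate 2 (0.0648), at log2 fold changes from -0.68 to -0.51.

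*Ntrk2*, which encodes TrkB, lies on chromosome 13 from 58806569 to 59133970 on the plus strand. Its levels were 186, 188, and 224 CPM with AAV5-*Gfp* and 127, 151, and 169 CPM with AAV5-*V1+V2*, in the order of replicates 1, 2, and 3. The groups did not overlap, and the nearest libraries were AAV5-*Gfp* replicate 1 and AAV5-*V1+V2* replicate 3. The log2 fold change was -0.42 (standard error 0.12, 95% interval -0.71 to -0.13), and edgeR gave an adjusted p of 0.0600, just over the threshold. Without AAV5-*V1+V2* replicate 1 the log2 fold change was -0.31 (adjusted p = 0.0724 by edgeR), and without replicate 3 it was -0.51 and was called (0.0275). DESeq2 gave an adjusted p of 0.0119. Reads from kinase-bearing and kinase-lacking forms were counted together in both genes. GENCODE M21 lists 7 protein-coding transcripts of *Ntrk2* and 6 of *Ntrk3*.

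Within each library, the scaling to library size cancels when counts of 2 genes are set against each other, while gene length does not. The count of *Ntrk3* was 2.38, 2.51, and 2.51 times that of *Ntrk2* in AAV5-*Gfp* replicates 1, 2, and 3. It was 2.25, 2.15, and 2.12 times that of *Ntrk2* in AAV5-*V1+V2* replicates 1, 2, and 3. All 3 AAV5-*V1+V2* ratios were below all 3 AAV5-*Gfp* ratios (exact two-sided permutation p = 0.1, which is the lowest value possible with 3 against 3). This pair was chosen after the values were seen.

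*Gfra2*, the neurturin receptor, lies on chromosome 14 from 70890120 to 70979838 on the plus strand. The 3 controls had 75.6, 75.0, and 96.5 CPM, and the AAV5-*V1+V2* libraries had 50.6, 60.0, and 66.1 CPM, each in the order of replicates 1, 2, and 3. The groups did not overlap, and AAV5-*Gfp* replicate 3 was above the other controls. *Gfra2* fell by 28.5% (log2 fold change -0.48, standard error 0.13, edgeR adjusted p = 0.0491). This call is close to the threshold. It was lost without AAV5-*Gfp* replicate 1 (edgeR adjusted p = 0.0898), replicate 2 (0.103), or replicate 3 (0.148), and without AAV5-*V1+V2* replicate 1 (0.0698) or replicate 2 (0.105). The log2 fold changes in these fits were -0.54, -0.55, -0.36, -0.38, and -0.49. The adjusted p was 0.0555 in limma-voom and 0.0509 by edgeR when libraries were scaled by total counts alone.

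*Gfra1*, the GDNF receptor, lies on chromosome 19 from 58235604 to 58455909 on the minus strand. Its levels were 184, 237, and 181 CPM with AAV5-*Gfp* and 180, 158, and 162 CPM with AAV5-*V1+V2*. The groups met without overlapping, since AAV5-*Gfp* replicate 3 and AAV5-*V1+V2* replicate 1 were nearly equal. AAV5-*Gfp* replicate 2 was the highest library. It also had the highest level of skeletal muscle markers (332 CPM, against 6.56 to 95.4 CPM in the others), and a link to *Gfra1* was not tested. The log2 fold change of *Gfra1* was -0.27 (standard error 0.12, 95% interval -0.55 to 0.01, edgeR adjusted p = 0.152). Without AAV5-*Gfp* replicate 2 it was -0.13 (edgeR adjusted p = 0.398). Gm16277, an overlapping gene on the opposite strand, held at most 2.21% as many counts as *Gfra1*. *Gfra3*, the artemin receptor, lies on chromosome 18 from 34689898 to 34720387 on the minus strand. It was at 33.3, 34.7, and 31.5 CPM with AAV5-*Gfp* and at 22.8, 33.2, and 27.9 CPM with AAV5-*V1+V2*, where replicate 2 lay among the controls. Its log2 fold change was -0.25 (standard error 0.13, edgeR adjusted p = 0.228), and it was -0.11 without AAV5-*V1+V2* replicate 1 and -0.38 without replicate 2. *Gfra4*, the persephin receptor, was low, at 4.04 to 5.11 CPM with AAV5-*Gfp* and 3.53 to 5.16 CPM with AAV5-*V1+V2*. *Gfral*, the receptor of GDF15, had between 9 and 21 counts in every library (log2 fold change -0.70, standard error 0.36, edgeR adjusted p = 0.205).

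*Ret* lies on chromosome 6 from 118151745 to 118197718 on the minus strand. The controls had 320, 300.1, and 341 CPM, and AAV5-*V1+V2* replicates 1, 2, and 3 had 209, 297, and 275 CPM. Replicate 1 was far below the other AAV5-*V1+V2* libraries, while replicate 2 was close to the lowest control. The log2 fold change was -0.30 (standard error 0.14, 95% interval -0.62 to 0.02, edgeR adjusted p = 0.162), and it was -0.16 (adjusted p = 0.190) without AAV5-*V1+V2* replicate 1. *Ngfr*, on chromosome 11 from 95568818 to 95587735 on the minus strand, was at 243, 218, and 203 CPM with AAV5-*Gfp* and at 162, 229, and 209 CPM with AAV5-*V1+V2*. The groups overlapped, with 2 of the AAV5-*V1+V2* libraries inside the range of the controls. Its log2 fold change was -0.15 (standard error 0.14, 95% interval -0.46 to 0.17, edgeR adjusted p = 0.469), and it was -0.013 without AAV5-*V1+V2* replicate 1, -0.24 without replicate 2, and -0.077 without AAV5-*Gfp* replicate 1.

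**Figure D2:**
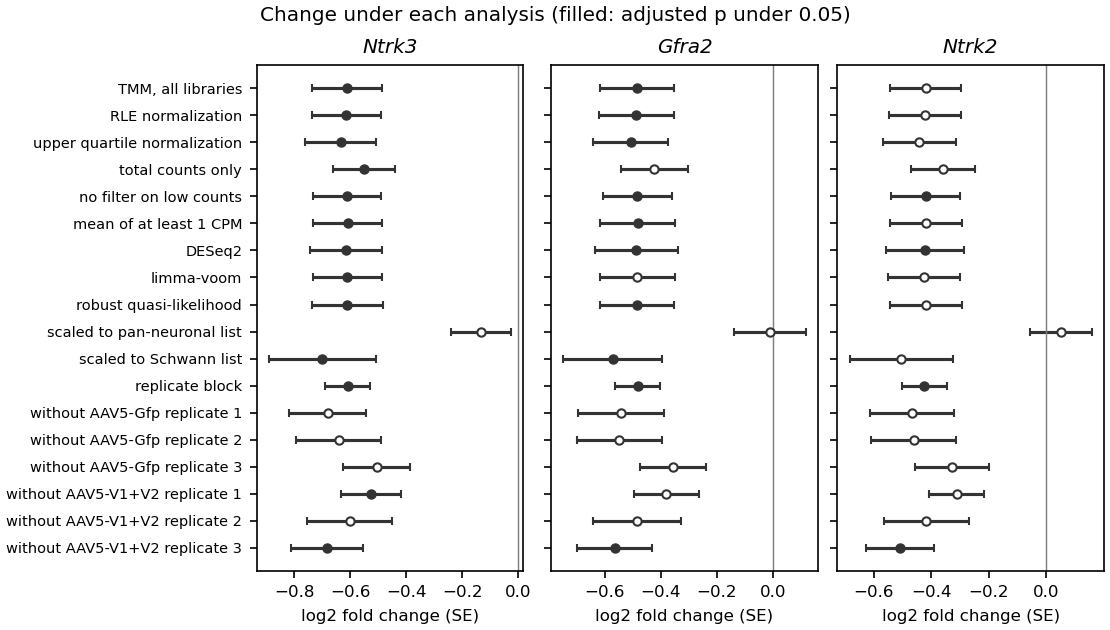
Log2 fold change of *Ntrk3*, *Gfra2*, and *Ntrk2* (horizontal axes, bars show the standard error) in each analysis (vertical axis), with filled points for an adjusted p under 0.05. *Ntrk3* was called in 12 of 17 alternatives, *Gfra2* in 9, and *Ntrk2* in 4, and all of these lay below 0 except *Ntrk2* under scaling to the pan-neuronal list (0.051).

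The upstream sequences of *Ntrk2* and *Ngfr* show the start regions of a Trk and a p75 receptor gene, and they are given here because they differ in GC boxes (GGGCGG on either strand). RefSeq windows (GRCm38.p6) were matched for 5 of the 9 genes and cut to the 250 bases before the start. GC boxes are in capitals. The *Ngfr* window on the minus strand is chr11:95587699-95587948 and has 4, and the *Ntrk2* window on the plus strand is chr13:58806319-58806568 and has 0. The RefSeq start of *Ngfr* lies inside its GENCODE span, which ends at 95587735, so the *Ngfr* window overlaps that span. Of all 32851 windows of this length, 32.7% held a GC box. The full cAMP response element (TGACGTCA), held by 1.5% of windows, was in none of the windows of these 5 genes. These matches describe the letters only.
Ngfr: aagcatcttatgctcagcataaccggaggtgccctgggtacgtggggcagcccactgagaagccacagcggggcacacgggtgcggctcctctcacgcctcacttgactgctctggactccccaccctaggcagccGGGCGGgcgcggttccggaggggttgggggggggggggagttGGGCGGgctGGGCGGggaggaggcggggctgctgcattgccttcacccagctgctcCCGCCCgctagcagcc
Ntrk2: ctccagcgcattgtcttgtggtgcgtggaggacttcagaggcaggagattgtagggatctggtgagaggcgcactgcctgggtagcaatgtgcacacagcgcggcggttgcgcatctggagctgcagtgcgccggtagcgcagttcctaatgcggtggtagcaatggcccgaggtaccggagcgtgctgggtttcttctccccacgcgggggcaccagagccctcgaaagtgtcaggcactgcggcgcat

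Among the ligands, *Bdnf*, the TrkB ligand made by a subset of nociceptors, lies on chromosome 2 from 109674700 to 109727007 on the plus strand. It was at 14.0, 14.7, and 18.7 CPM with AAV5-*Gfp* and at 9.12, 14.8, and 15.4 CPM with AAV5-*V1+V2*. Only replicate 1 of AAV5-*V1+V2* was below the controls. The log2 fold change was -0.27 (standard error 0.21, 95% interval -0.76 to 0.22, edgeR adjusted p = 0.394). It was -0.06 without AAV5-*V1+V2* replicate 1 and -0.13 without AAV5-*Gfp* replicate 3. *Gdnf*, on chromosome 15 from 7810846 to 7837575 on the plus strand, had 29, 28, and 29 counts with AAV5-*Gfp* and 31, 33, and 33 counts with AAV5-*V1+V2*. In CPM it was at 0.899, 0.808, and 0.929 and at 0.942, 0.991, and 0.962, so all AAV5-*V1+V2* libraries were slightly above the controls (log2 fold change 0.14, standard error 0.19, edgeR adjusted p = 0.653). Counts this low give little precision.

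The other ligands were given by lists of the whole pathway. *Ntf3*, the TrkC ligand, had 41, 60, and 59 counts with AAV5-*Gfp* and 36, 40, and 43 counts with AAV5-*V1+V2*. The groups of *Ntf3* did not overlap once scaled to library size, but the difference did not pass (log2 fold change -0.46, standard error 0.21, edgeR adjusted p = 0.165). *Nrtn*, *Artn*, *Pspn*, *Ntf5*, and *Gdf15* had at most 15 counts in any library and did not pass the filter. Of the 4 ligands tested, 0 were called by edgeR, DESeq2, or limma-voom, and 0 had an unadjusted p under 0.05.

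Set against gene length, *Ngfr* was the most abundant of the 9 and *Gdnf* the least. In CPM per kilobase of merged exons with AAV5-*Gfp*, the levels were 64.3 ± 5.73 for *Ngfr*, 47.4 ± 3.05 for *Ret*, 36.7 ± 5.74 for *Gfra1*, 23.3 ± 3.45 for *Gfra2*, 16.6 ± 0.785 for *Gfra3*, and 16.3 ± 2.05 for *Ntrk3* (SD, n = 3). *Ntrk2* followed at 10.3 ± 1.12, *Bdnf* at 2.54 ± 0.403, and *Gdnf* at 0.239 ± 0.0172 on the same scale (SD, n = 3). Neighbours in this order did not overlap in any AAV5-*Gfp* library, except *Gfra3* and *Ntrk3*. With AAV5-*V1+V2* the order of the means was the same, but *Ret* overlapped with *Gfra1*, *Gfra2* with *Gfra3*, and *Gfra3* with *Ntrk3*. The place of the Trk genes among the 9 rests on the length used, because their merged exons span many alternative ends (30170 bases for *Ntrk3* and 19292 for *Ntrk2*). *Ntrk3* was above *Ntrk2* by either length. Per kilobase of the longest transcript, *Ntrk3* was at 25.0, *Gfra2* at 23.7, *Ntrk2* at 22.8, and *Gfra3* at 16.6 CPM with AAV5-*Gfp*.

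**Figure D3:**
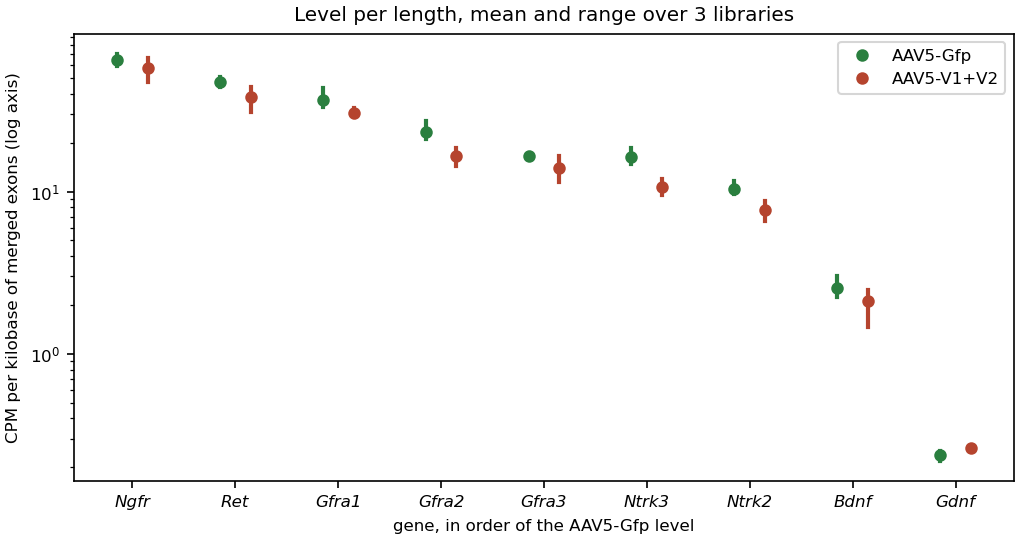
Level of each gene in CPM per kilobase of merged exons (vertical axis, log scale), in order of the AAV5-*Gfp* mean (horizontal axis), with points for means and bars for the range over 3 libraries. *Ngfr* (64.3) and *Gdnf* (0.239) are the ends of the order with AAV5-*Gfp*, and the AAV5-*V1+V2* means are below those of AAV5-*Gfp* for all genes shown but *Gdnf*.

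The genes varied in different ways over replicates of a group. AAV5-*Gfp* replicate 3 was the highest control for *Ntrk2*, *Ntrk3*, *Ret*, *Gfra2*, *Bdnf*, and *Gdnf*, and the lowest for *Gfra1*, *Gfra3*, and *Ngfr*. AAV5-*V1+V2* replicate 1 was the lowest of its group for 8 of the 9 genes and the highest for *Gfra1*. Over the 6 libraries, the genes whose log2 CPM was most like that of *Ntrk2* were *Frem2* and Gm26756 (Pearson r = 0.999 for both) and *Ccdc162_1* (0.998), among 14564 genes. For *Ret* they were *Tmem9b* (0.999), *Ipo4* (0.998), and *Prmt2* (0.997). For *Ngfr* they were *Ndufb11* (0.996), *Sept5* (0.994), and *Shc2* (0.992), and for *Bdnf* they were *Etv5* (0.998), *Nupl1* (0.998), and *Ccdc47* (0.994). These r describe 6 points in 2 groups that share libraries and scaling, and values this high are the largest of many genes.

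Markers of neurons were compared next. Of the 13 pan-neuronal markers, 13 had a log2 fold change below 0 (median -0.43, range -0.93 to -0.20), 3 were called lower by edgeR (*Rbfox3*, *Syn1*, and *Pou4f1*), and 0 were higher. Their geometric mean was 206, 207, and 226 CPM in AAV5-*Gfp* replicates 1, 2, and 3, and 124, 169, and 172 CPM in AAV5-*V1+V2* replicates 1, 2, and 3. In whole ganglia, fewer neurons among the cells and less RNA of these genes per neuron cannot be told apart. The median was -0.30 for 8 markers of large neurofilament-rich neurons (3 lower and 1 higher), -0.32 for 8 markers of peptidergic neurons (1 lower), and -0.35 for 10 markers of nonpeptidergic neurons (1 lower). By edgeR 5.27% of all genes were lower. At an unadjusted p under 0.05, 10 pan-neuronal, 3 neurofilament, 6 peptidergic, and 7 nonpeptidergic markers were lower, against 15.5% of all genes. DESeq2 called 8, 3, 3, and 4 lower in that order, and 1606 over all genes. *Runx3*, the 1 higher gene of the neurofilament list, is known in proprioceptive neurons and also in T cells. Of 10 myelinating Schwann cell markers, 0 were called by edgeR, DESeq2, or limma-voom, with 1 higher and 0 lower at an unadjusted p under 0.05, and their median was 0.05. Macrophage markers had a median of 1.68 (9 of 10 higher), and B and T cell markers a median of 3.33 (10 of 11 higher, summed level 7.30 to 17.4 CPM with AAV5-*Gfp* and 234 to 340 CPM with AAV5-*V1+V2*). Of 8 nonmyelinating Schwann cell markers, 3 were lower and 2 higher (median -0.24), and of 10 satellite glia markers 1 was higher (median -0.04). Of 12 nerve injury genes, *Atf3* and *Ecel1* rose, and the median was 0.13. Of 9 fibroblast and perineurium markers, 2 were higher (median 0.43, with 5 higher at an unadjusted p under 0.05), and their summed level was 1081 to 1403 CPM with AAV5-*Gfp* and 1560 to 2324 CPM with AAV5-*V1+V2*, without overlap. Of 7 endothelial and mural markers 1 was higher (median 0.13). Skeletal muscle markers had a median of -1.73, with 0 of 5 called by edgeR, DESeq2, or limma-voom and 0 at an unadjusted p under 0.05.

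When libraries were scaled to the geometric mean count of the pan-neuronal markers, 0 of the 9 genes were lower by edgeR's test and 0 were higher. Under this scaling 0.290% of all genes were called lower and 35.6% higher, and the median over all genes moved to 0.48, against 0.18 over the 9 genes. *Ntrk3* was at a log2 fold change of -0.13 (standard error 0.11, 95% interval -0.38 to 0.11, edgeR adjusted p = 0.313), *Gfra2* at -0.01 (standard error 0.13, 95% interval -0.30 to 0.28), and *Ntrk2* at 0.051 (standard error 0.11, 95% interval -0.19 to 0.30). The other genes lay above 0, from 0.16 for *Ret* to 0.31 for *Ngfr* and 0.61 for *Gdnf*. *Ngfr* (standard error 0.13, edgeR adjusted p = 0.0749) and *Gdnf* (standard error 0.25, adjusted p = 0.0785) had an unadjusted p under 0.05. Scaled to the 10 myelinating Schwann cell markers instead, *Ntrk3* was at -0.70 (edgeR adjusted p = 0.0228) and *Gfra2* at -0.57 (adjusted p = 0.0417).

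**Figure D4:**
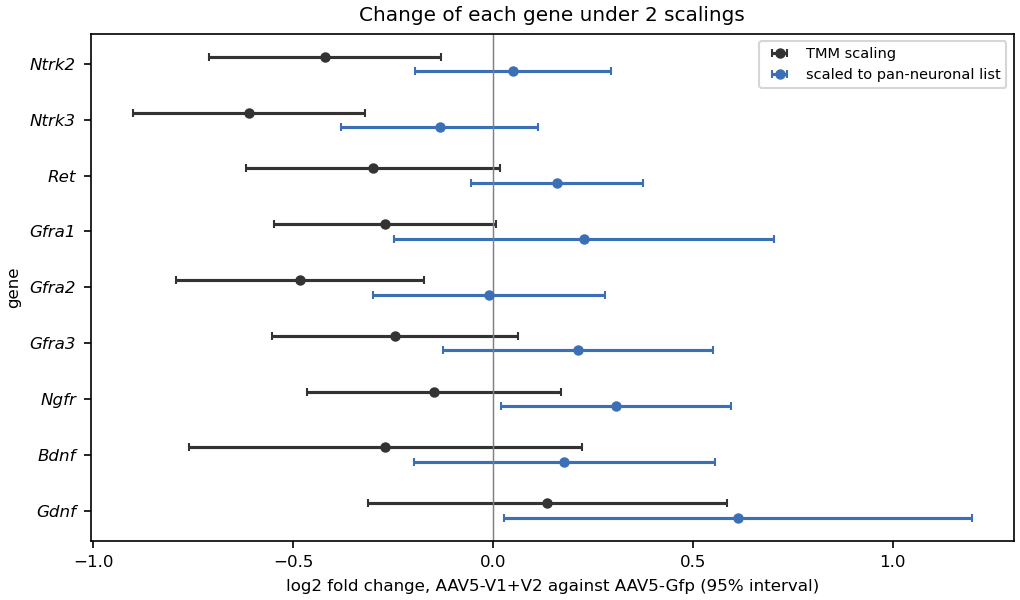
Log2 fold change of AAV5-*V1+V2* against AAV5-*Gfp* (horizontal axis, bars show the 95% interval) for each gene (vertical axis), with TMM scaling in black and scaling to the pan-neuronal list in blue. *Ntrk3* moves from -0.61 to -0.13 and *Gfra2* from -0.48 to -0.01, and the intervals of both then include 0.

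Of 93 other pathway genes tested, 7 rose and 4 fell, against 10.1% and 5.27% of all genes called. The 4 that fell were 3 co-receptors and 1 adaptor. *Sorcs1*, a sorting receptor of the Vps10 family, was at 301, 337, and 326 CPM with AAV5-*Gfp* and at 234, 239, and 238 CPM with AAV5-*V1+V2* (log2 fold change -0.44, standard error 0.07, edgeR adjusted p = 0.0168). The AAV5-*V1+V2* libraries were close together and all below the controls. For *Sorcs3*, of the same family, the log2 fold change was -0.63 (standard error 0.16, edgeR adjusted p = 0.0379). *Lingo1*, which joins p75 in the Nogo receptor complex, was at -0.59 on this scale (standard error 0.14, adjusted p = 0.0343). The co-receptor list as a whole had 3 of 12 genes lower, 0 higher, and a median of -0.27. *Dok6*, an adaptor that binds *Ret*, was at 56.7, 62.9, and 68.7 CPM in the controls and at 41.7, 45.9, and 43.9 CPM with AAV5-*V1+V2*, and fell by 0.52 on the log2 scale (standard error 0.09, edgeR adjusted p = 0.0163).

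The 36 adaptors and kinases had a median of 0.04, with 4 genes higher and 1 lower by edgeR. DESeq2 called 5 higher and 2 lower, and limma-voom called 2 higher and 1 lower. *Dok1* (log2 fold change 1.05, standard error 0.21, edgeR adjusted p = 0.0233) and *Dok2* (1.42, standard error 0.37, adjusted p = 0.0427), adaptors known in blood cells, rose. So did *Sh2b2* (1.42, standard error 0.30, edgeR adjusted p = 0.0271), an adaptor of several receptor kinases and of lymphocytes. *Rapgef1*, an exchange factor downstream of Crk, also rose, close to the threshold (0.48, standard error 0.13, edgeR adjusted p = 0.0477). These rises stood beside those of the macrophage and lymphocyte markers given above, whose part in them was not tested. Of 16 targets and feedback genes, 0 were called by edgeR or limma-voom and 3 were higher by DESeq2, and 6 were higher and 0 lower at an unadjusted p under 0.05. Of 10 processing genes, 0 were called by edgeR or limma-voom, DESeq2 called 3 higher and 1 lower, and 3 were higher and 3 lower at an unadjusted p under 0.05. At that threshold 15.5% of all genes were lower. The share of all genes higher is not given here, so the unadjusted rises have no base rate. Among 14 other trophic genes, *Osm* (1.82, standard error 0.45), *Clcf1* (1.25, standard error 0.29), and *Igf1* (0.42, standard error 0.11) rose. Their edgeR adjusted p were 0.0376, 0.0328, and 0.0434, and limma-voom called 2 genes of this list higher. The 3 genes encode a cytokine of the interleukin 6 family, a ligand of the CNTF receptor, and insulin-like growth factor. With AAV5-*Gfp* replicate 2 or replicate 3 left out, edgeR called 0 of the 93 genes, and over all genes it called only 12 and 15 higher and 0 lower in either fit. Of the 93, 16 and 15 were higher and 8 and 7 were lower at an unadjusted p under 0.05. Over all genes, 2029 of 18917 and 1815 of 18947 were lower at that threshold. Without AAV5-*Gfp* replicate 1 the 93 genes gave 0 higher and 1 lower, beside 257 higher and 59 lower over all genes. Without AAV5-*V1+V2* replicate 1 they gave 8 higher and 5 lower (1862 and 1095 over all genes), without replicate 2 they gave 1 and 1 (1020 and 150), and without replicate 3 they gave 14 and 8 (2474 and 1446).

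**Figure D5:**
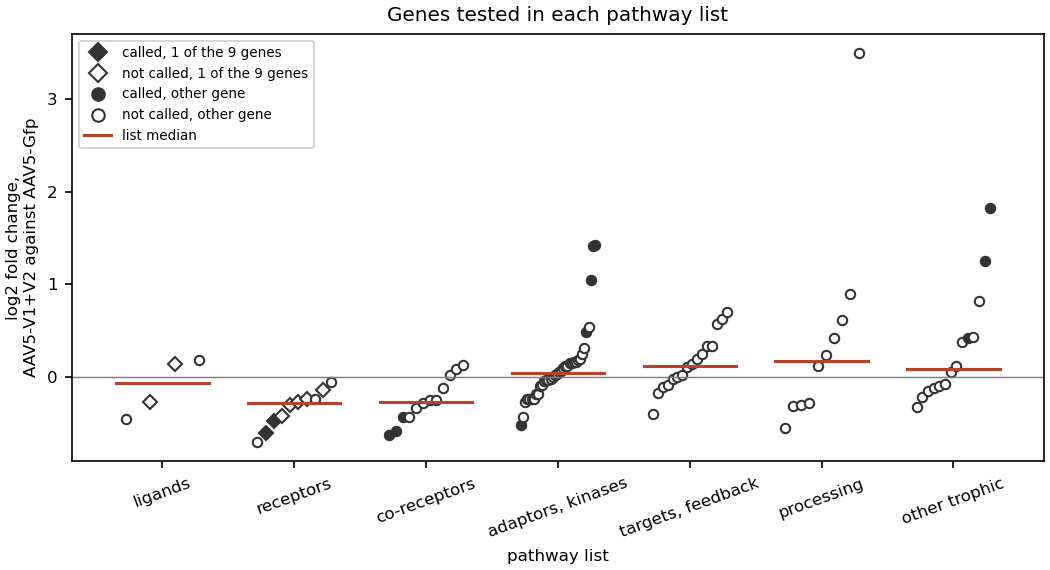
Log2 fold change (vertical axis) of each gene tested in 7 pathway lists (horizontal axis), sorted within a list, with diamonds for the 9 genes, filled symbols for calls, and a red line for the list median. Receptors (median -0.29) and co-receptors (-0.27) lie mostly below 0, and the other trophic genes (0.09) and adaptors (0.04) spread to both sides.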

How the data were processed

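RNA sequencing was performed on total RNA from microinjected DRGs (TruSeq stranded libraries), and 1 table of unnormalized counts by gene symbol was deposited by the authors. The build is GRCm38 (mm10), per the submitters' processing notes. The aligner, the counting program, the annotation, the use of strand in counting, and the handling of reads shared by genes are not given in the sources used here. Counts depend on them where genes overlap, which can affect *Ntrk2*, *Ntrk3*, *Gfra1*, and *Bdnf*.

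Libraries were assigned by the replicate numbers in their titles. Genes were filtered with filterByExpr, normalized by TMM, and tested in 1 fit with glmQLFit and glmQLFTest (edgeR 4.0.16, R 4.3.3). Standard errors are the absolute coefficient over the square root of F, and 95% intervals use the t distribution of the fit. Log2 CPM used a prior count of 2. Lengths and positions come from GENCODE M21. The calculation was tested on simulated data. Libraries of a group differed by at least 8.27 in chi-square per degree of freedom, so none was a copy.

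The genes and lists were chosen with earlier results of these data known. Named genes were the 9 genes, the other ligands and receptors, up to 4 called genes of each other list by smallest p, and the 3 genes most like *Ntrk2*, *Ret*, *Ngfr*, and *Bdnf*. *Rapgef1* and the marker genes named were chosen after their values were seen. Alternatives covered scaling, filtering, DESeq2 1.42.0, limma-voom (limma 3.58.1), robust fitting, the replicate block, thresholds, and leaving out each library. Some pathway genes are not reported here.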

Additional observations from a re-analysis of the deposited data

How the results depend on the processing

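The number of the 9 genes called lower was 2. It was 3 with DESeq2 (1606 over all genes), the replicate block (1341), no filter on low counts (989 of 30623), and an adjusted p under 0.1. The number was 1 with total counts only (774) and in limma-voom (842), and 0 with scaling to the pan-neuronal list (54). Across the fits that each left out 1 library it was from 0 to 3. Over all genes 980 were lower, but only 59, 0, and 0 were without AAV5-*Gfp* replicates 1, 2, and 3. *Ntrk2*, *Ret*, *Gfra1*, *Gfra3*, *Ngfr*, and *Bdnf* turned positive only under the pan-neuronal scaling (0.051, 0.16, 0.23, 0.21, 0.31, and 0.18), which by its construction sets the neuronal markers to no change. *Gdnf* was not tested where a mean of at least 1 CPM was required. The number of the 9 called higher was 0 in every analysis.

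Among the other pathway genes, 7 were higher and 4 lower. The numbers were 14 and 8 with DESeq2, 4 and 4 in limma-voom, and 41 and 0 under the pan-neuronal scaling. They were 16 and 10 at an adjusted p under 0.1, and 21 and 16 at an unadjusted p under 0.05. Over all 18593 genes, 1872 higher and 980 lower became 2405 and 1606 with DESeq2 and 1421 and 842 in limma-voom. Under the pan-neuronal scaling they became 6624 and 54. At an unadjusted p under 0.05, 2878 of all genes were lower. The all-gene counts at an adjusted p under 0.1, and of higher genes at an unadjusted p under 0.05, are not given here. For the pathway genes, leaving out 1 library gave from 0 to 14 higher and from 0 to 8 lower. By the longest transcript, 5 of the 9 genes kept their rank in level.

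With the replicate number as a block, 11 pathway genes were higher and 8 lower, against 2118 and 1341 over all genes. In that fit *Ntrk2* was called (edgeR adjusted p = 0.0160). The deviations of same-numbered libraries had r = 0.036, 0.066, and 0.11, of which 1 was over the 0.1 required of every pair, and not every library correlated best with its own number, so the libraries are taken to share only a number. The cause of the other differences was not tested. With 3 libraries a group, small differences of *Bdnf* and *Gdnf* are beyond this design.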
